A study of Mus musculus with 32 samples.

Results

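MHC class II molecules present peptides from endocytosed protein to CD4+ T cells, and the 7 mouse genes described here are those of the presenting machinery together with Ciita, the coactivator that switches it on. Around them, 22 of the 45552 sites bound by HNF4A in jejunal intestinal epithelial cells (IECs) were found, and the 7 genes are 7 of 22367 protein-coding genes annotated. Sites were obtained by merging HNF4A ChIP-seq peaks of 8 mice wherever they shared at least 1 bp, and a site was kept when it touched the body of Ciita, Cd74, H2-Aa, H2-Ab1, H2-Eb1, H2-DMa or H2-DMb1 or the 20 kb on either side (genome build mm9, GENCODE M1 gene models). The rule for sites uses gene positions only, and the 7 genes were chosen with earlier results of these data known.

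HNF4A is a nuclear receptor that drives the differentiation of absorptive enterocytes and the expression of lipid-handling genes in them. Class II genes are best known from dendritic cells, macrophages and B cells, but small-intestinal epithelium also carries class II molecules, which depend on interferon gamma and on the microbiota. CIITA does not itself bind DNA in a sequence-specific way. It docks onto RFX, CREB and NF-Y, which sit on the S, X and Y boxes just upstream of each class II gene, and Ciita has several alternative first exons with promoters used in dendritic cells, in B cells and in cells exposed to interferon gamma. H2-Aa and H2-Ab1 encode the alpha and beta chains of I-A, H2-Eb1 encodes the beta chain of I-E, Cd74 encodes the invariant chain that escorts them, and H2-DMa with H2-DMb1 encode the chaperone that exchanges the invariant chain remnant for peptide. The gene for the alpha chain of I-E is defective in C57BL/6 mice and is annotated as the pseudogene H2-Ea-ps.

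The libraries came from male C57BL/6J mice aged 10 to 12 weeks and collected 2 hours after a high-fat meal, either germ-free (GF+HFM, 4 mice) or germ-free until given a microbiota 14 days earlier (conventionalized, CV+HFM, 4 mice), 1 library per mouse. The IEC preparation was unsorted and held villus epithelium with some crypts and villus mesenchymal cells. Each deposited list gives peak positions without height, so a site is described by which libraries called it and by its width percentile, the rank of its width among the peaks of the same list, as a percentage of their number, with ties given their mean rank and the widest peak at the top. The lists held 31061 to 36846 peaks in GF+HFM, whereas those of CV+HFM replicates 1 to 4 held 29345, 9206, 21033 and 4533, so fewer calls in CV+HFM are the rule across the genome. Fewer cells with bound HNF4A and less binding per cell cannot be told apart in such bulk preparations. Sites were counted at cell type marker genes as well, beside 65.5% of all protein-coding genes with a site and a median of 2 sites. All 8 enterocyte markers had 4 or more sites with a median of 11.5. Of 8 leukocyte markers, 6 had a site with a median of 2, near the values over all genes. There were 5 sites at Itgam and 4 at Flt3, and none at Ptprc (CD45) or Itgax (CD11c). Of 4 mesenchymal markers, 2 had a site.

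The sequence shared by the peaks is shown first for member sites called in at least 2 libraries that hold a match to an HNF4A motif. Sites without a match are not shown. Among these are the site upstream of H2-Aa from 34429319, called in 7 libraries, and the Brd2 site from 34256030. HNF4A recognizes direct repeats of AGGTCA with 1 base between the copies, searched here on both strands with up to 2 mismatches, and an element spelled CAAAGTCCA, searched exactly. The sequences are the mm9 reference on the plus strand, and capitals mark matches, which read as the reverse complement where the match lies on the minus strand. The first is the 99 bp common to all 8 libraries at the site 7.7 kb upstream of Ciita (chr16:10472199-10472297), which holds CAAAGTCCA on the plus strand from 10472225 to 10472233.
Ciita upstream, all 8 libraries: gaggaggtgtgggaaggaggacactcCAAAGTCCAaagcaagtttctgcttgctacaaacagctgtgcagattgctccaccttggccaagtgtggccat
At the site 14.5 kb upstream of Ciita (chr16:10465390-10465600, 6 libraries), a direct repeat with 2 mismatches lies on the minus strand.
Ciita far upstream: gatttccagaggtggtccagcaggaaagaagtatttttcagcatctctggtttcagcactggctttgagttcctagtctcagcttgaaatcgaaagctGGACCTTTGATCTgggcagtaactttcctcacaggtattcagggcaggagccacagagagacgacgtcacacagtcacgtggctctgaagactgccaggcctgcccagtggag
In intron 1 of Ciita (chr16:10495225-10495409, called in 2 GF+HFM libraries), the element lies on the minus strand.
Ciita intron 1: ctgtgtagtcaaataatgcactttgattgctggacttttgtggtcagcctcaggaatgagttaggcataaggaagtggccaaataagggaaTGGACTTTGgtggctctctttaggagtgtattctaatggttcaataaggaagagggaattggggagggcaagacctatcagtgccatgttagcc
In H2-Ab1, the site over a coding exon and intron 2 (chr17:34402113-34402226, 4 libraries) holds 3 direct repeat matches on the minus strand, 2 of which overlap, and the site in intron 6 (chr17:34405641-34405782, 6 libraries) holds the element on the minus strand.
H2-Ab1 exon and intron 2: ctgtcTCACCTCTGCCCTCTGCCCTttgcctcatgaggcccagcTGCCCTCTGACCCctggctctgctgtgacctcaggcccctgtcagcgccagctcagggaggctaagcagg
H2-Ab1 intron 6: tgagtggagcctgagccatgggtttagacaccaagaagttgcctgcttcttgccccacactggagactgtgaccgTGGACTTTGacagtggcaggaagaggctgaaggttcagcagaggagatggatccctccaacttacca
At the edge of the H2-DMb1 window, next to Psmb9 (chr17:34317091-34317286, 5 libraries), the repeat is spelled AGGTCAGAGGACA and has 1 mismatch, the closest match among the member sites.
H2-DMb1 window, near Psmb9: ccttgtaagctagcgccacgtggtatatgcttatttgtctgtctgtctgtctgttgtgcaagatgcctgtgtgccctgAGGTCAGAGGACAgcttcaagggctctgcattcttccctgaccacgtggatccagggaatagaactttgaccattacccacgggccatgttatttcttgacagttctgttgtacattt
At the site upstream of H2-Eb1 the peaks of all 8 libraries share no base, and the run shown is common to 7 of them (chr17:34438065-34438181, all but CV+HFM replicate 4). Its capitals mark CAAAGTTCA on the plus strand, a spelling with T in place of C that was added to the search after this sequence had been read.
H2-Eb1 upstream, 7 libraries: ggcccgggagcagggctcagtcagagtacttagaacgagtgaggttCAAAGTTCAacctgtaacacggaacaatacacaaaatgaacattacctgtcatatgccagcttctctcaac

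Direct repeat matches were present in 4 of the 22 member sites, and in 200 bp windows at site midpoints their share was 18.2% against 12.9% of 45325 sites genome-wide. CAAAGTCCA was present in 3 of the 22 windows and in 4.89% of all windows. The added spelling CAAAGTTCA occurred in 1 member site and in 3.38% of all windows. No member site held both a repeat and CAAAGTCCA. A match is a description of the letters and does not mark where the protein bound.

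Ciita had the most HNF4A sites of the 7 genes. Its window, on the plus strand of chromosome 16 with the gene body from 10480237 to 10527657, held 10 sites, and 94.6% of protein-coding genes had fewer. Its body of 47421 bp is the longest of the 7. Per 100 kb of window the density was 11.4 sites at Ciita, 11.4 at H2-DMa and 10.3 at H2-Aa, so Ciita did not stand apart from these on that scale, and the median over all protein-coding genes was 2.20 per 100 kb and 2 sites per window. In all, 65.5% of protein-coding genes had at least 1 site by the same rule. Of the 10 sites, 4 lay upstream of the gene, 4 inside it and 2 at the neighbouring genes Dexi and Clec16a.

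**Figure D1:**
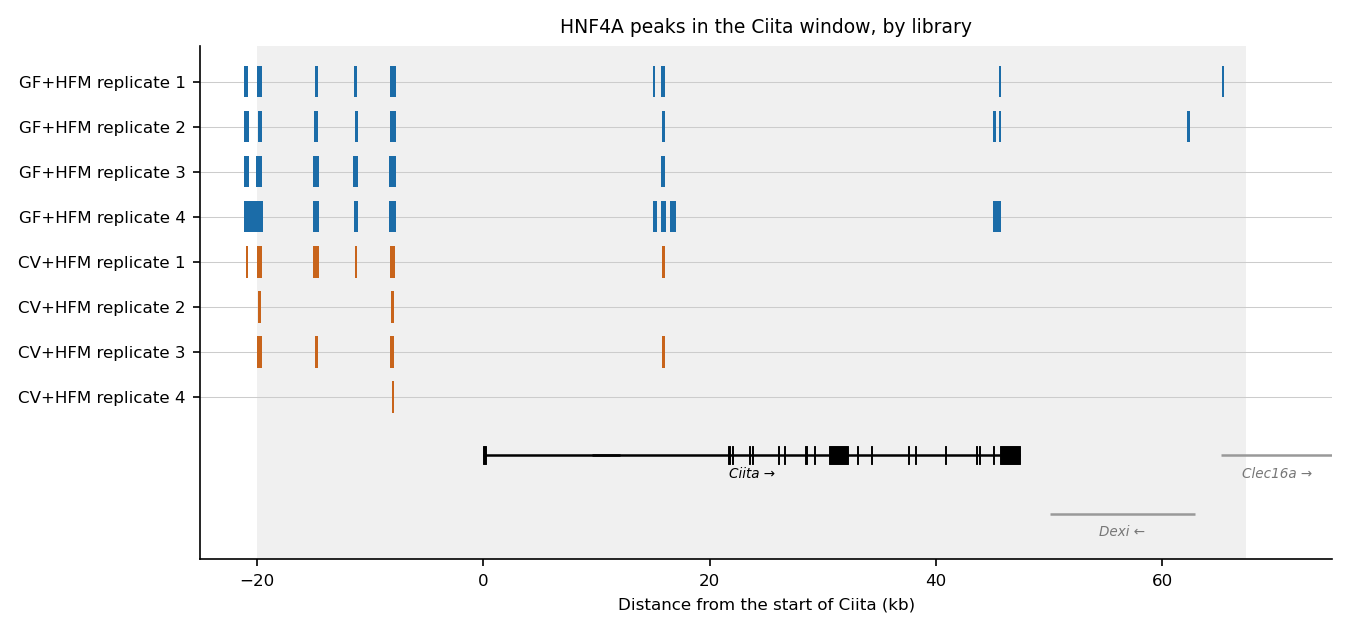
Peaks of each library (blue GF+HFM, orange CV+HFM) against distance in kb from the start of Ciita, with the window shaded grey, and below them the exons of the longest Ciita model and the bodies of Dexi and Clec16a, arrows giving the strand; the narrowest peaks are drawn wider than they are so as to be visible. The upstream site at 7.7 kb is the only position with a peak in all 8 libraries, and no peak lies at the annotated start of Ciita.

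The site from 10471891 to 10472554, 7683 bp upstream of the first annotated Ciita start and in no annotated gene, was called in all 8 libraries. Its peak was 517, 513, 609 and 651 bp wide in GF+HFM replicates 1 to 4 and 436, 227, 352 and 99 bp wide in CV+HFM replicates 1 to 4. The width percentiles were 81.8, 87.2, 78.3 and 74.0 in GF+HFM and 75.1, 70.03, 71.8 and 47.8 in CV+HFM. It thus stood in the upper part of 7 of the 8 lists, and only CV+HFM replicate 4, the shortest list, placed it near the middle. It was 1 of 3445 sites called in every library, 7.56% of all sites. Ranked against those 3445 sites alone, which are wide in general, it fell at a percentile of 33.1 ± 12.0 (SD, n = 4) in GF+HFM and 33.6 ± 9.77 (SD, n = 4) in CV+HFM. The difference in normal score of the rank, CV+HFM minus GF+HFM, was 0.02 with a standard error of 0.36, which did not pass the test (limma, adjusted p = 0.986, where 4 of the 3445 sites or 0.116% passed). The other annotated Ciita transcripts start between 10488271 and 10489876, and from these starts the site is 15717 to 17322 bp away.

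The other upstream sites were called in every GF+HFM library and in a part of the CV+HFM libraries. At 11056 bp upstream (10468690 to 10469181) the site had a peak in all 4 GF+HFM mice but in CV+HFM replicate 1 alone, and at 14481 bp (10465188 to 10465756) in all 4 GF+HFM mice plus CV+HFM replicates 1 and 3 (two-sided Fisher's exact test, p = 0.143 and 0.429). The width percentiles of the latter were 54.3, 56.0, 74.2 and 55.0 in GF+HFM and 80.6 and 25.5 in CV+HFM replicates 1 and 3, so that CV+HFM replicate 1 exceeded every GF+HFM library. The farthest site (10459050 to 10460759) crosses the edge of the window and had a peak in all mice but CV+HFM replicate 4. It was 1 peak of 1670 bp, at the 99.3 percentile, in GF+HFM replicate 4, but 2 separate peaks in GF+HFM replicates 1 to 3, the wider at percentiles of 70.4 to 75.7, and in CV+HFM replicate 1. CV+HFM replicates 2 and 3 called only the part nearer to Ciita.

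Inside Ciita, 3 sites lay in intron 1, the long intron that the later first exons fall in, and 1 near the end of the gene. The site from 10495942 to 10496340, 15705 bp downstream of the first start and 7671 bp downstream of the next, had a peak in all 4 GF+HFM mice plus CV+HFM replicates 1 and 3, with width percentiles of 11.2 to 61.2 in GF+HFM and 39.3 and 48.8 in CV+HFM. The neighbouring site (10495218 to 10495569) had peaks in GF+HFM replicates 1 and 4, and the one from 10496741 to 10497242 in GF+HFM replicate 4. The site from 10525255 to 10526029 lay over the last exons and the intron between them. It had a peak in GF+HFM replicates 1, 2 and 4, with percentiles of 29.7, 26.2 and 83.5. It was missing from CV+HFM (p = 0.143, Fisher's exact test). Each of the 2 remaining sites, 444 bp from a start of Dexi and 27 bp from that of Clec16a, was called in 1 GF+HFM library. The 300 bases around the first Ciita start, from 250 before to 50 after it, met no site and held neither HNF4A motif.

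Per library, Ciita sites numbered 8, 7, 5 and 8 in GF+HFM replicates 1 to 4 and 5, 2, 4 and 1 in CV+HFM replicates 1 to 4. The counts of the groups meet at 5. Among protein-coding genes outside the lists used here, the nearest in this pattern, by Euclidean distance over the 8 counts, was Inadl (9 sites, distance 1.41), followed by Abhd6 (8 sites) and Fam117b (10 sites) at 1.73, a distance that 6 genes reached.

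The remaining 12 sites lay in the class II region of chromosome 17, and their windows overlap, so a site can belong to several genes. The GENCODE M1 body of H2-Aa runs into the end of H2-Ab1. Its transcript with the most exons runs into H2-Ab1 as well, and with that body H2-Aa kept 6 sites and the total was also 22. That setting therefore could not show how many sites a shorter H2-Aa body would keep. All 6 lie in the window of another member too, so a shorter H2-Aa body could not lower that total. H2-Aa had 6 sites, H2-DMa 5, H2-Ab1 4, H2-Eb1 3 and H2-DMb1 3. All 4 sites of H2-Ab1 and all 3 of H2-Eb1 also lay in the H2-Aa window, and 2 sites of H2-DMa lay in the H2-DMb1 window. Of protein-coding genes, 17.3% had at least as many sites as H2-Aa and 38.9% at least as many as H2-Eb1. Inside the gene bodies there were 2 sites in H2-Ab1, 2 in H2-DMa and 1 in H2-Aa, and none in H2-Eb1 or H2-DMb1.

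**Figure D2:**
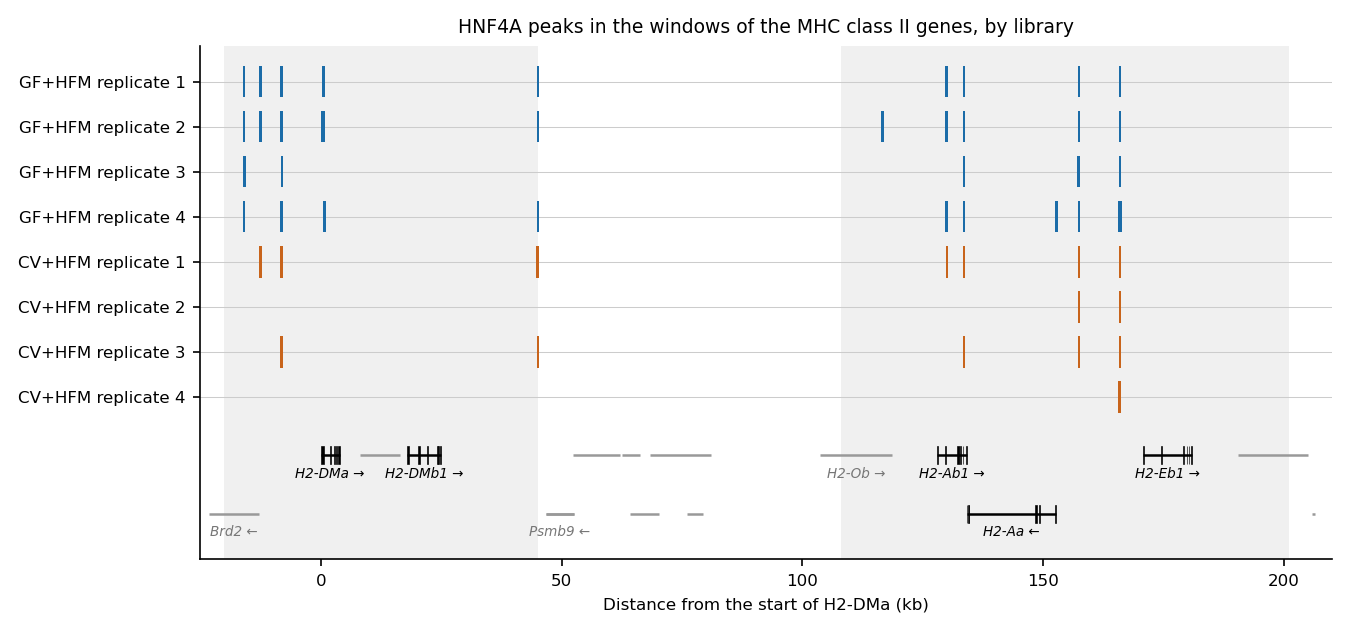
Peaks of each library (blue GF+HFM, orange CV+HFM) in the windows of the 5 class II genes on chromosome 17, shaded grey, against distance in kb from the start of H2-DMa, with gene bodies below (members in black with exons, neighbours in grey, arrows giving the strand); peaks outside the shaded windows are not drawn, and narrow peaks are drawn wider than they are. Peaks in CV+HFM replicates 2 and 4 occur only between H2-Aa and H2-Eb1.

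Between H2-Aa and H2-Eb1, whose starts face away from each other, 2 sites had the most regular calls of the region. The site from 34437768 to 34438564, 4264 bp upstream of H2-Eb1 and 12996 bp upstream of H2-Aa, was called in all 8 libraries. Its width percentiles were 76.4, 76.9, 62.6 and 85.0 in GF+HFM and 56.5, 8.26, 79.1 and 24.8 in CV+HFM. The CV+HFM libraries were split, with replicates 1 and 3 at or near the GF+HFM range and replicates 2 and 4 low. The peaks of these last libraries, 117 and 67 bp wide, do not overlap each other (34438065 to 34438181 and 34437939 to 34438005), although each lies inside the peaks of the other 6. Among the 3445 sites called in all libraries it stood at a percentile of 25.6 ± 13.7 (SD, n = 4) in GF+HFM and 16.1 ± 17.2 (SD, n = 4) in CV+HFM, a difference in normal score of -0.52 with a standard error of 0.43 that did not pass the test (limma, adjusted p = 0.641). The site from 34429319 to 34429860, 4547 bp upstream of H2-Aa, had peaks at percentiles of 50.8 to 79.9 in the 4 GF+HFM mice and in CV+HFM replicates 1, 2 and 3 at 63.3, 53.9 and 67.1. There the percentiles of the CV+HFM libraries fell within the GF+HFM range.

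At the class II genes themselves the sites were narrow or seen in few mice. In H2-Ab1, the site in intron 6 (34405583 to 34405872) had a peak in all 4 GF+HFM mice plus CV+HFM replicates 1 and 3, at percentiles of 9.30 to 37.0 and of 3.55 and 23.1, and so was among the narrower peaks of every list that called it. The site over a coding exon and intron 2 (34401950 to 34402283), 1796 bp from the start, was called in GF+HFM replicates 1, 2 and 4 and in CV+HFM replicate 1. The site over the start of H2-Aa (34424739 to 34425004) had a peak only in GF+HFM replicate 4, at the 12.3 percentile, and it is the only site that met the promoter of a member. A site of GF+HFM replicate 2 alone, 11276 bp upstream of H2-Ab1, lies in an intron of H2-Ob, which encodes a chain of the modulator of H2-DM.

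The promoters were searched for the elements that class II genes share. Within 250 bases before to 50 after the start, the Y box core CTGATTGG, bound by NF-Y, was found on either strand in H2-Aa, H2-Ab1 and H2-Eb1 and in 4.55% of 22367 promoters. The X box core CCTAGCAAC with up to 1 mismatch was found in Cd74, H2-Eb1 and H2-DMb1 and in 7.17% of promoters. The 2 H2-DMb1 matches lay after its annotated start, not upstream of it. Neither HNF4A motif was found in the promoter of any of the 7 genes, and they were found in 3.26% (repeat) and 0.456% (element) of all promoters. The 150 bases before each I-A and I-E gene start are given on the strand of the gene, mm9, with Y box and X box matches in capitals (chr17:34424773-34424922, minus strand, for H2-Aa; chr17:34400004-34400153 for H2-Ab1; chr17:34442678-34442827 for H2-Eb1).
H2-Aa: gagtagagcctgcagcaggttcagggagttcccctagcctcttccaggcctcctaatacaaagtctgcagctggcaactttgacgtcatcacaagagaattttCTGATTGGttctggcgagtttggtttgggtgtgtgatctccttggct
H2-Ab1: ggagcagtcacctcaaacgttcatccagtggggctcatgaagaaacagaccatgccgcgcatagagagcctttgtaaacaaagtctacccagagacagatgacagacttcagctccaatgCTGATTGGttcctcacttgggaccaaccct
H2-Eb1: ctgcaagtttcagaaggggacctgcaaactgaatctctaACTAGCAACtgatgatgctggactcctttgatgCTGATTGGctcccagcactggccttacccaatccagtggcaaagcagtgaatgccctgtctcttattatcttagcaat
The Y box ends 40, 23 and 71 bases before the start of H2-Aa, H2-Ab1 and H2-Eb1. The H2-Aa promoter was met by the peak of a single library, and those of H2-Ab1 and H2-Eb1 by none.

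At H2-DMa and H2-DMb1, the peptide-exchange chaperone, CV+HFM libraries had a mean of 0.75 and 0.5 called sites against 3.5 and 1.75 in GF+HFM. In the first exon and intron 1 of H2-DMa, 450 bp from the start, a site (34272577 to 34273109) had peaks in GF+HFM replicates 1, 2 and 4, at percentiles of 18.2, 23.4 and 60.4, and was missing from CV+HFM. A site in the H2-DMa UTR, 147 bp from the start, was called in GF+HFM replicate 2 alone. Upstream of H2-DMa lies Brd2, which encodes a bromodomain protein, and 3 sites of the H2-DMa window lay at or near it. Of these, the site from 34256030 to 34256449 in an annotated UTR of Brd2, 15678 bp from H2-DMa, had a peak in each of the 4 GF+HFM mice and was missing from CV+HFM. It was the only member site that passed an unadjusted threshold of 0.05 (two-sided Fisher's exact test, p = 0.0286, the smallest that 4 against 4 libraries allow, adjusted p = 0.824), a count of 1 of 22 beside 2.79% of all sites. Its peaks were narrow, at percentiles of 1.47, 20.1, 45.1 and 8.32. The count was 3 without GF+HFM replicate 3, which adds the sites at the H2-DMa start and at the end of Ciita, and 2 without CV+HFM replicate 1, which adds the site 11056 bp upstream of Ciita. A site at the start of Brd2 (34259303 to 34259830) had peaks in GF+HFM replicates 1 and 2 and in CV+HFM replicate 1, at percentiles of 82.8, 24.8 and 8.12. The site from 34263698 to 34264298, 7829 bp upstream of H2-DMa, had a peak in all 4 GF+HFM mice plus CV+HFM replicates 1 and 3, at percentiles of 51.4 to 62.1 and of 61.2 and 48.8. H2-DMb1 had no site in its body or within 10 kb of it. Of its 3 sites, 2 are those at the H2-DMa start and the third, called in GF+HFM replicates 1, 2 and 4 and in CV+HFM replicates 1 and 3, straddles the far edge of the window next to Psmb9, which encodes an immunoproteasome subunit.

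Cd74 was the member without a site. Its body runs from 60963502 to 60972300 on chromosome 18, and no library called a peak within 20 kb of it, as was the case for 34.5% of protein-coding genes. The nearest sites were 33037 bp upstream (60929335 to 60930465), with a peak in 4 GF+HFM and 2 CV+HFM mice, and 46558 bp downstream, called in 1 GF+HFM library. The lists carry no counts, so binding below the threshold of the peak caller could not be measured there.

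Of the 22 sites, 20 (90.9%) had a peak in more mice of GF+HFM than of CV+HFM, the other 2 in equal numbers and none in more CV+HFM libraries. Of all sites, 86.5% were called in more GF+HFM libraries and 2.86% in more CV+HFM libraries, so the member sites sit near the genome-wide share. Member sites called in no CV+HFM library numbered 10 (45.5%, against 35.6% of all sites), those called in all 4 GF+HFM libraries 10 (45.5% against 50.6%), and those called in a single library 6 (27.3% against 21.6%). By library, 17, 18, 10 and 17 member sites were called in GF+HFM and 12, 4, 9 and 2 in CV+HFM. These are 77.3%, 81.8%, 45.5% and 77.3% of the 22 in GF+HFM, against 76.4%, 64.0%, 72.1% and 74.0% of all sites. In CV+HFM they are 54.5%, 18.2%, 40.9% and 9.09%, against 60.8%, 19.2%, 43.3% and 8.97%. Member calls in CV+HFM thus followed the length of each list within 7 percentage points, and GF+HFM replicate 3 called fewer member sites than its list as a whole. Animal identifiers carry the letter A in some libraries, whose meaning the sources used here do not give. With it, GF+HFM libraries called 17 and 18 member sites and CV+HFM libraries 4 to 12, and without it GF+HFM libraries called 10 and 17, against 2 in the single CV+HFM library, so CV+HFM was lower within each set.

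**Figure D3:**
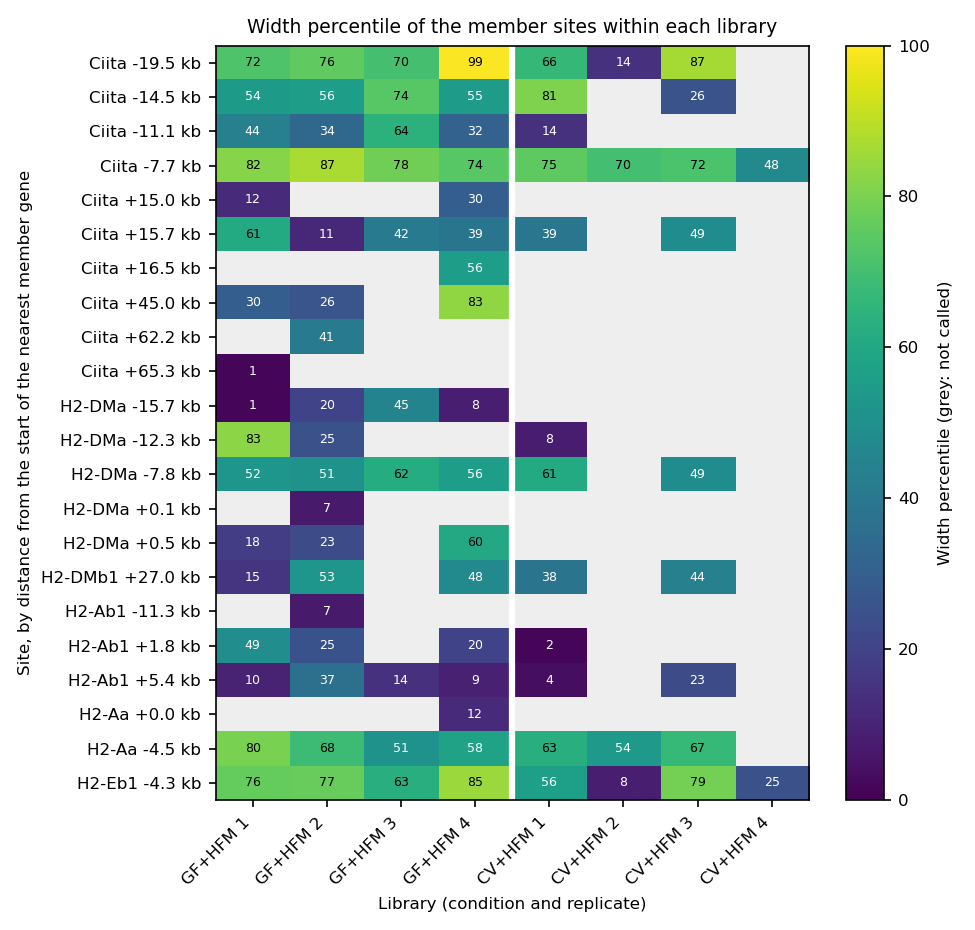
Width percentile (colour and number, 0 to 100 within the peaks of the same list) of each of the 22 member sites, named by the distance of its nearest edge from the start of the nearest member gene, in the 4 GF+HFM and 4 CV+HFM libraries; grey marks a site that the library did not call. The rows at 7.7 kb upstream of Ciita and 4.3 kb upstream of H2-Eb1 are filled in all 8 columns, and the last column, CV+HFM replicate 4, is grey in the other 20 rows.

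Peaks at the member sites covered nearly the whole range of widths in either condition. The 62 calls in GF+HFM had a median width percentile of 49.9 (1.47 to 99.3), and the 27 calls in CV+HFM a median of 48.8 (1.53 to 86.7). These calls share sites and libraries, and no test was made over them.

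Bases under peaks were then summed in each window. Ciita had 2519, 2341, 2489 and 4057 bp in GF+HFM and 1785, 353, 1284 and 99 bp in CV+HFM, with no overlap between the groups (2852 ± 807 against 880 ± 790 bp, SD, n = 4 each, exact permutation p = 0.0286, adjusted p = 0.0801). GF+HFM replicate 4 stood well above the other libraries of its group. H2-DMa had 1213, 1133, 859 and 1285 bp in GF+HFM and 549, 0, 271 and 0 bp in CV+HFM, again without overlap and with the same p-values. H2-Aa (1543 ± 420 against 591 ± 478 bp) and H2-Eb1 (1055 ± 355 against 454 ± 322 bp, SD, n = 4 each), which share 3 sites, did not overlap either and had the same p-values. H2-Ab1 (554 ± 246 against 137 ± 168 bp, exact permutation p = 0.0571) and H2-DMb1 (370 ± 300 against 61.0 ± 72.3 bp, exact permutation p = 0.143, SD, n = 4 each) overlapped between the groups. Thus 4 of the 6 genes with covered bases were lower in CV+HFM at an unadjusted p below 0.05, beside 35.7% of the 14640 protein-coding genes tested, and none of the 14640 passed after Benjamini-Hochberg adjustment. The p of 0.0286 is the smallest that the 70 relabellings allow. The count was 1 without GF+HFM replicate 4, beside 13.1% of all genes tested in that setting. It was 2 without GF+HFM replicate 1 (16.8% of all genes), CV+HFM replicate 2 (23.7%) or CV+HFM replicate 4 (21.8%). It was 4 with other genes, H2-Ab1 and H2-DMb1 in place of Ciita and H2-Aa, without GF+HFM replicate 3 (15.6% of all genes). The count thus did not follow the share over all genes in every setting.

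The order changes when each value is divided by all bases under peaks in the same library, 0.623 to 18.4 Mb. On that scale Ciita held 195 ± 31.8 in GF+HFM and 178 ± 17.6 in CV+HFM ppm of covered bases (SD, n = 4 each, exact permutation p = 0.4). H2-DMa remained lower, at 79.9 ± 23.2 against 23.3 ± 27.2 (exact permutation p = 0.0286, adjusted p = 0.295), where 6.28% of genes were lower and 3.39% higher at that threshold. H2-Aa and H2-Eb1 turned to the other direction, at 108 ± 27.4 against 128 ± 30.6 and 71.6 ± 12.4 against 113 ± 40.1 (exact permutation p = 0.4 and 0.114). H2-Ab1 and H2-DMb1 had 39.6 ± 19.5 against 15.9 ± 18.4 and 26.4 ± 20.7 against 7.25 ± 8.42 (exact permutation p = 0.143 and 0.171). The lower covered length in CV+HFM at Ciita, H2-Aa and H2-Eb1 moved with the length of the lists, whose part in the result was not tested. In the H2-DMa window, every CV+HFM call was at a site at or near Brd2. With the gene body only, the H2-DMa difference in covered bases was -283.5 bp, CV+HFM minus GF+HFM (exact permutation p = 0.143).

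**Figure D4:**
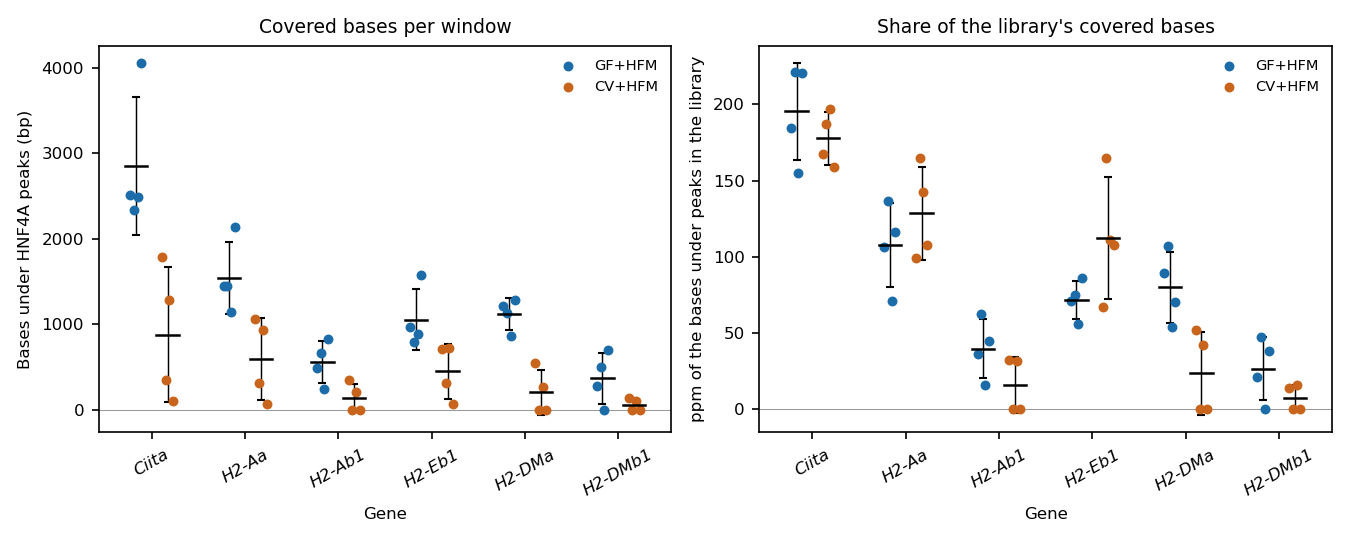
Bases under HNF4A peaks in the window of each gene, in bp (left) and in ppm of the bases under peaks in the same library (right); points are the 4 GF+HFM (blue) and 4 CV+HFM (orange) libraries, horizontal lines the means and bars 1 SD. On the left the groups do not overlap at Ciita, H2-Aa, H2-Eb1 and H2-DMa, and on the right they do not overlap at H2-DMa alone.

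The genes around this machinery were counted by the same rule, beside 65.5% of all protein-coding genes with a site and a median of 2. The median was 3 sites for class II paralogs and neighbours, 2 for the docking factors of CIITA and their coregulators and 9.5 for interferon gamma signalling. It was 5.5 for class II processing and turnover and 6 for class I presentation. The first 2 genes named from each list are those with the most sites. All 6 class II paralogs and neighbours had a site, with 5 at Btnl2, a butyrophilin-like gene, and 3 at H2-DMb2. The 3 sites at H2-DMb2 and the 3 at H2-Ob all lie in the member windows. Of the 10 genes for the factors that CIITA docks onto and their coregulators, 9 had a site, with 5 at Nfyb, a subunit of NF-Y, and 4 at Crebbp, a histone acetyltransferase, and none at Rfxap, a subunit of RFX. All 8 genes of interferon gamma signalling had a site, with 19 at Irf2 and 16 at Irf1, which act on the inducible Ciita promoter. All 8 genes of class II processing and turnover had a site, with 7 at Lgmn and 6 at Ctsb, both endosomal proteases. All 11 genes of class I presentation had one, with 10 at H2-D1, a heavy chain, and 9 at B2m, the light chain. Among these, Tap1, Psmb8 and Psmb9 each share 1 site with the member windows. Sites called in more GF+HFM libraries made up 13 of 14 for paralogs and neighbours and 22 of 25 for the docking factors and coregulators. They made up 67 of 79 for interferon gamma signalling, 32 of 37 for processing and 40 of 50 for class I, beside 86.5% of all sites. Sites called in more CV+HFM libraries numbered 0 of 14 for paralogs and neighbours and 1 of 25 for the docking factors and coregulators. They numbered 3 of 79 for interferon gamma signalling, 0 of 37 for processing and 3 of 50 for class I, beside 2.86% of all sites.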

How the data were processed

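HNF4A ChIP-seq (Abcam antibody ab41898, 1 input library per condition) was available as 1 peak list for each of 8 mice (GF+HFM and CV+HFM, 4 each), grouped by their labels. The other 24 samples (RNA-seq, H3K27ac and input) were not used here. Per the study's methods, the authors used Bowtie2 for alignment to mm9, then identified peaks in each mouse with MACS2 2.1.1.20160309 against input at a false discovery rate threshold, and deposited peak positions in bp with no count, score or p-value. Depth is therefore unknown, and peak numbers depend on depth, enrichment and input. As the planned ranking by strength was not possible, width was used.

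Here peaks sharing at least 1 bp were merged, and sites were assigned to gene windows. Calls were tested by two-sided Fisher's exact tests and covered bases by two-sided exact permutation over 70 relabellings, each adjusted by Benjamini-Hochberg over all sites or genes. Width ranks (normal scores within a library) were tested with limma 3.58.1 in R 4.3.3. The permutation and limma tests were checked on simulated normal values, which do not copy the zeros and unequal list lengths of these data. All peaks lay inside the NCBIM37 lengths on 21 of 21 chromosomes, and sequence was read from that build. Replicates are separate mice.

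All 7 members were named with every site. For the gene with the most sites, the 3 genes nearest in calls per library were named, and from each pathway list the 2 genes with the most sites. Members and lists were chosen with earlier results of these data known. The alternatives were body only, 10 or 50 kb flanks, merging within 100 bp, at least 2 libraries, widest peaks, peaks at least as wide as their list's median, nearest gene start, 50% of a site covered, share of covered bases, log2 width, each library left out, and the replicate number as a block. Chosen after seeing the data were sites wholly inside windows, H2-Aa from its transcript with the most exons, and CAAAGTTCA.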

Additional observations from a re-analysis of the deposited data

Results flagged for a closer look

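In groups of 4 libraries, a value was singled out when its gap to the nearest of the others took up more of the range of its group than Dixon's 95% critical value, which chance alone meets in about 1 of 20 groups. Of 26 groups of values compared, 3 met it. GF+HFM replicate 3 called 10 member sites, and the other GF+HFM libraries called 17 to 18. GF+HFM replicate 4 had 4057 bp under peaks in the Ciita window, against 2341 to 2519 bp in the other GF+HFM libraries. Of its single wide peak at the edge of the window (10459090 to 10460759), only the part from 10460237 on counts. Inside Ciita it had a peak of 502 bp from 10496741 that no other library called. Its peak at the site from 10525255 was 773 bp wide. The widest there was 242 bp in GF+HFM replicate 1 and 228 bp in replicate 2, and replicate 3 had no call. At the site 14.5 kb upstream of Ciita, GF+HFM replicate 3 had a width percentile of 74.2, against 54.3 to 56.0 in the other GF+HFM libraries.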

How the results depend on the processing

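The 22 sites became 9 with gene bodies only, 13 with 10 kb and 41 with 50 kb flanks (2 of these at Cd74), 4 with the 4533 widest peaks of each list, 13 with peaks at least as wide as their list's median, and 14 by nearest gene start, and were 19 to 22 with a library left out. The 6 genes with a site became 3 with the widest peaks, 2 sites each at Ciita, H2-Aa and H2-Eb1. The 1 site past the unadjusted Fisher threshold became 2 where at least 50% of a site had to be covered (the H2-Eb1 upstream site and the one 11056 bp upstream of Ciita). The count became 0 with the widest peaks or those above the median width, and 1 to 3 with a library left out. The share of all sites past the threshold was not counted in these settings. The 4 genes with fewer covered bases in CV+HFM (35.7% of all genes) became 1, H2-DMa, as a share of the library's covered bases (6.28% of all genes lower). They became 1, Ciita and not H2-DMa, with gene bodies only (29.4%), 0 with the widest peaks (10.6%), and 1 to 4 with a library left out (13.1% to 52.2%). The share reversed H2-Aa (20.9 ppm higher in CV+HFM) and H2-Eb1 (40.9 ppm higher), as did the widest peaks (163 bp higher at H2-Aa and 163 bp at H2-Eb1). The cause of these changes was not tested, except that fewer peaks or bases entered the narrower settings. Neither site called in all libraries passed the limma test in any of 10 alternatives. The labels do not say whether the replicate numbers pair the mice. Correlations of deviations between mice of the same number were -0.08 to 0.14, which cannot settle it. With the replicate number as a block, 0 genes passed, since that pairing cannot reach the threshold, and limma called 0 of the 2 sites (unadjusted p = 0.962 and 0.248). Depth is unknown, so an uncalled site is not shown to be unbound.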
